A study of Mus musculus with 12 samples.

Results

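The mRNA of 10 hepatocyte transporters was followed in mouse livers with MYC-driven tumors and in liver cancer xenografts, with and without tryptophan (Trp) in the diet. The 10 genes were taken by name from the 24062 gene symbols counted in each RNA-seq library, and all 10 were present. They are the bile acid and organic anion uptake carriers Slc10a1, Slco1a1, Slco1a4, Slco1b2 and Slco2b1, and the ATP-driven exporters Abcb11, Abcb4, Abcc2, Abcc3 and Abcc4. The series holds 12 libraries, 1 per mouse, in 4 groups of 3. MYC livers came from male FVB mice in which the liver-specific LAP-tTA driver switches on a human TRE-MYC transgene once doxycycline (1 mg/mL in the drinking water of the breeders) is withdrawn at birth. Of these, 101, 102 and 103 were given the control diet, whereas 105, 107 and 108 received the diet without Trp (No-Trp). Xenografts were HCC53N tumors, grown from a single mouse liver cancer cell line that lacks p53 and overexpresses mutant NRAS, subcutaneously in NOD SCID hosts, all female. Hosts 40, 41 and 43 were control-fed, and hosts 35, 36 and 37 received the No-Trp diet. Each diet was fed for 21 days. For the MYC livers the labels give an age of 45 days, for a comparison with wild type and not for the diets. No age is given for the xenograft hosts. In the labels the HCC53N cells are described as MYC ON. The paper, however, derived the line from liver tumors with p53 loss and mutant NRAS and names no MYC transgene in it. Presence of the transgene was not examined here. Tumor model, host strain, sex and site change together between livers and xenografts and cannot be told apart.

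Hepatocytes take bile acids and other organic anions from the blood across the basolateral membrane and secrete them across the canalicular membrane into bile. NTCP, the product of Slc10a1, carries conjugated bile acids together with sodium, and the OATP carriers encoded by the Slco genes exchange a broad range of organic anions without sodium. At the canaliculus BSEP (Abcb11) pumps bile salts, MDR2 (Abcb4) moves phosphatidylcholine into bile and MRP2 (Abcc2) exports conjugates such as bilirubin glucuronides, while MRP3 (Abcc3) and MRP4 (Abcc4) send anions back across the basolateral side.

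Reads counted on genes ranged from 14660963 to 26085349 per library. Values are given as CPM, the read counts of a gene scaled to the size of its library, with TMM factors set over all 12 libraries, and levels of different genes are compared as CPM per kilobase (kb) of exon sequence. A gene was called where edgeR's quasi-likelihood test with Benjamini-Hochberg adjustment gave p no higher than 0.05 and the levels differed by 1 or more on the log2 scale. The livers carried the 7 hepatocyte markers (Alb, Ttr, Apoa1, Apoh, Serpina1a, Cps1 and Hnf4a) at a summed 9686 to 113469 CPM, whereas the xenografts held them at 316 to 821 CPM, with none of the 7 at 0 reads in any library. In the xenografts the 5 cholangiocyte markers summed to 2945 to 10798 CPM, against 86.7 to 167 CPM in the livers. Most of the xenograft sum was Spp1, at 2311 to 9961 CPM. Krt19, Krt7 and Sox9 were higher in every xenograft than in any liver, whereas Epcam overlapped, at 5.94 to 19.9 CPM in xenografts and 3.78 to 12.8 CPM in livers. The control livers differed among themselves. In mouse 101, 36.1% of reads were not counted on a gene (unaligned, ambiguous or multiply aligned reads included) and 12.1% of counts came from the ribosomal gene Rn45s, and the counts of its pairs with mice 102 and 103 differed most (chi-square per degree of freedom of 274 and 240, against 165 for 102 with 103). Mouse 102 stood apart in the transporters and hepatocyte markers. Its hepatocyte markers summed to 36303 CPM, against 12452 and 9686 CPM in mice 101 and 103, and its level was the highest of the control mice for 8 of the 10 transporters. Values without mouse 102 are given beside the transporter comparisons and gene lists that it moved most, while levels and ratios include it unless stated. Mouse 102 was singled out by its own transporter and marker levels, so p-values without it describe its weight and are no separate evidence.

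In control livers the carrier with the highest mean was Slc10a1, at 78.2 ± 51.8 CPM per kb (SD, n = 3), followed by Abcb11 at 57.5 ± 7.85, Slco1b2 at 32.7 ± 45.7 and Slco1a1 at 24.0 ± 36.0. The remaining 6 genes lay between 4.70 and 13 CPM per kb, with Abcb4 above Abcc2, Abcc3, Abcc4, Slco1a4 and Slco2b1. No pair of neighbors in this order was separated beyond the range of the 3 mice. In No-Trp livers the order of the means was Slc10a1 at 233 ± 81.3, Slco1b2 at 97.1 ± 42.1, Slco1a4 at 87.6 ± 13, Abcc2 at 67.0 ± 32.1, Abcb11 at 58.6 ± 23.2 and Abcb4 at 47.7 ± 8.46 CPM per kb. Here Slc10a1 was above Slco1b2, and Abcb4 above Slco1a1, the next in the order, in the whole range of the mice, while the other neighbors overlapped. Slco1a4 moved from the ninth place to the third, while Abcb11 moved from the second to the fifth with almost the same mean.

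To learn how the absence of dietary Trp related to these transporters in MYC livers, the diets were compared within the livers. Slco1a4, Abcc2, Abcb4 and Slc10a1 were called higher on the No-Trp diet, and no member was called lower. Over all genes, 9.28% of the 14122 tested were called higher and 7.27% lower. The groups of 3 mice did not overlap, with the No-Trp mice higher, for 6 of the 10 transporters, against 23.6% of all genes tested. The median log2 fold change of the 10 was 1.35, against -0.0031 over all genes. In whole tissue, more hepatocytes and more RNA per hepatocyte cannot be told apart. The samples are livers that hold tumors, and the paper reports that tumors were fewer and smaller in MYC livers on the No-Trp diet. Tumor content thus differed with the diet, and its part in the values was not tested. Of the 7 hepatocyte markers 3 were called higher on the No-Trp diet, and their sum was 44547 to 113469 CPM, against 9686 to 36303 CPM on the control diet. Immature hepatocyte markers summed to 18674 to 26517 CPM in control and 1893 to 11380 CPM in No-Trp livers, with 0 of 3 called. Erythroid markers fell from 45.1 to 495 CPM to 7.15 to 18.1 CPM, with all 3 tested of 5 called lower and the other 2 at 0 reads, and their part in the values was not tested. Of other cell type markers, Clec4g (sinusoidal endothelium, 1.97) and Dcn (stellate cell and fibroblast, 1.91) were called higher, and Acta2 (stellate cell and fibroblast, -1.68) and Fabp4 (adipocyte, -1.05) lower, on the log2 scale, and their part was not tested either.

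**Figure D1:**
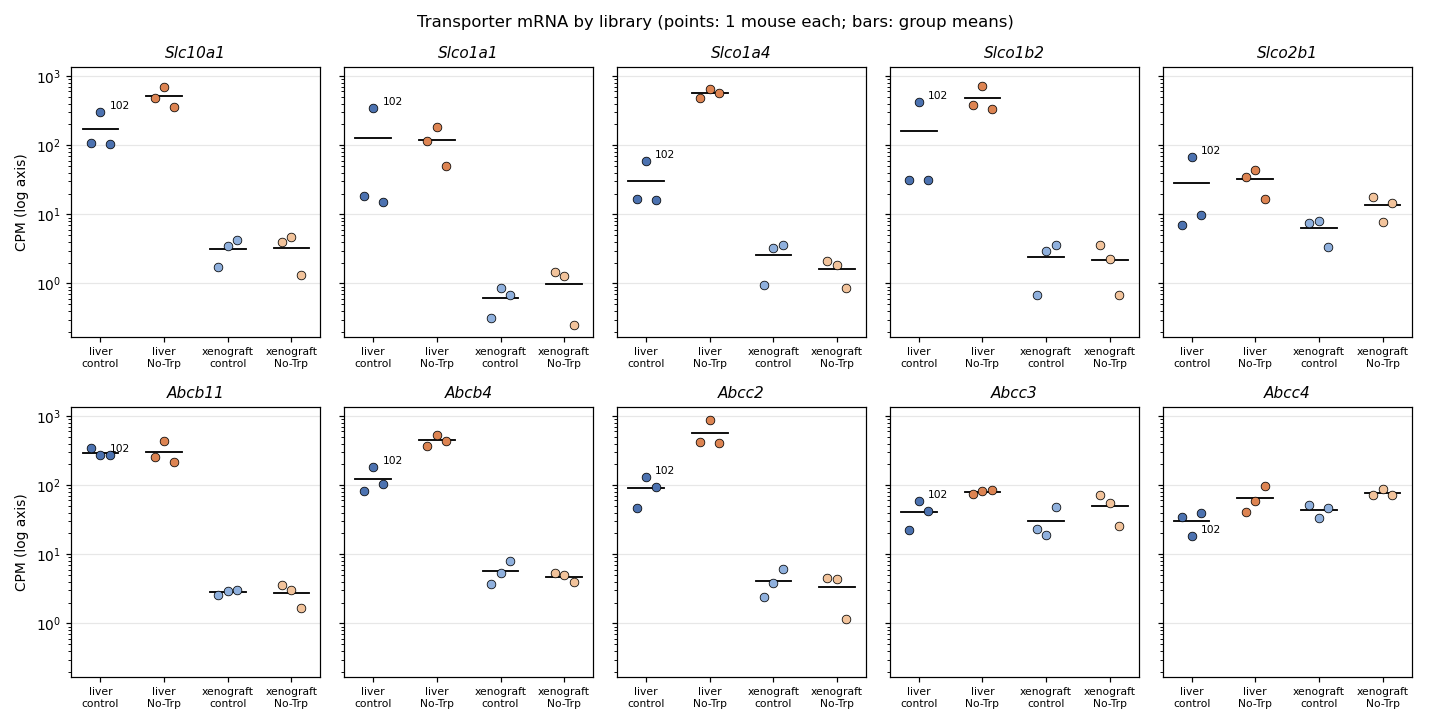
CPM of each transporter (log axis) in the 12 libraries by model and diet, with 1 point per mouse, a bar at each group mean and control liver 102 marked. The 3 No-Trp livers lie above all control livers for Slc10a1, Slco1a4, Abcb4, Abcc2, Abcc3 and Abcc4, and Slco2b1, Abcc3 and Abcc4 lie closest between livers and xenografts.

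Among the uptake carriers the change was largest for Slco1a4, which encodes OATP1A4. Its level was 16.6, 59.3 and 16.0 CPM in control mice 101, 102 and 103, and 477, 644 and 565 CPM in No-Trp mice 105, 107 and 108. Every No-Trp liver was thus far above the highest control liver, mouse 102. The log2 fold change was 4.22 ± 0.58 (SE), an 18.7-fold rise (edgeR adjusted p = 0.0142). Slc10a1 was at 107, 304 and 106 CPM in the control livers and at 475, 707 and 356 CPM in the No-Trp livers. The groups did not overlap, but mouse 102 came close to the lowest No-Trp mouse, and the log2 fold change of 1.60 ± 0.48 (edgeR adjusted p = 0.0488) passed the threshold narrowly. The call for Slc10a1 was lost in 8 of 14 alternative fits, with the same direction in each.

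Slco1b2, the mouse counterpart of the human hepatic OATP1B carriers, had the same fold change as Slc10a1 without a call. The control livers held 31.1, 421 and 31.0 CPM and the No-Trp livers 384, 716 and 335 CPM. Mouse 102 lay within the range of the No-Trp mice, and the log2 fold change of 1.60 ± 1.03 gave an edgeR adjusted p of 0.282. Slco1a1, whose product is more abundant in male than in female mouse liver, was at 18.4, 346 and 15 CPM in the control livers and at 116, 185 and 50.5 CPM in the No-Trp livers. Here mouse 102 was above every other liver, and the fitted change was -0.08 ± 1.18 (edgeR adjusted p = 0.968). Slco2b1 was at 6.95, 67.2 and 9.82 CPM and at 35.3, 43.9 and 16.8 CPM, again with mouse 102 as the highest liver, and its log2 fold change was 0.22 ± 0.85 (edgeR adjusted p = 0.864). Slco2b1 is overlapped by 2 annotated antisense genes, and the strand setting of the counting is not given in the sources used here.

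At the canaliculus the pumps moved unequally. Abcc2 was at 47.0, 130 and 94.5 CPM in control mice 101, 102 and 103 and at 419, 888 and 407 CPM in No-Trp mice 105, 107 and 108. The groups were well apart, and the log2 fold change was 2.68 ± 0.48, or 6.40-fold (edgeR adjusted p = 0.0196). Abcb4 was at 81.9, 180 and 104 CPM and at 373, 531 and 439 CPM, with a log2 fold change of 1.89 ± 0.32, or 3.72-fold (edgeR adjusted p = 0.0182). In contrast, Abcb11 was at 342, 274 and 271 CPM in the control livers and at 252, 437 and 215 CPM in the No-Trp livers. The No-Trp mice lay on both sides of the controls, and the log2 fold change was 0.05 ± 0.29 (edgeR adjusted p = 0.919). When libraries were scaled by their totals alone, the change of Abcb11 was -0.29, and the median of all genes was -0.30 on that scale. Abcb11 overlaps an antisense gene and a pseudogene in the annotation.

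The basolateral exporters were between these. Abcc3 was at 22.4, 58.8 and 42 CPM in control livers and at 75.2, 82.2 and 84.3 CPM in No-Trp livers. Abcc4 was at 34.7, 18.4 and 38.9 CPM and at 41.4, 58.6 and 96.4 CPM. In both genes all No-Trp livers were above all control livers, with log2 fold changes of 0.99 ± 0.32 and 1.10 ± 0.39. Neither was called, at edgeR adjusted p = 0.0590 and 0.0724. Abcc4 was the only transporter for which mouse 102 was the lowest of the control livers. Without mouse 102 it had a log2 fold change of 0.83 (edgeR adjusted p = 0.113).

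**Figure D2:**
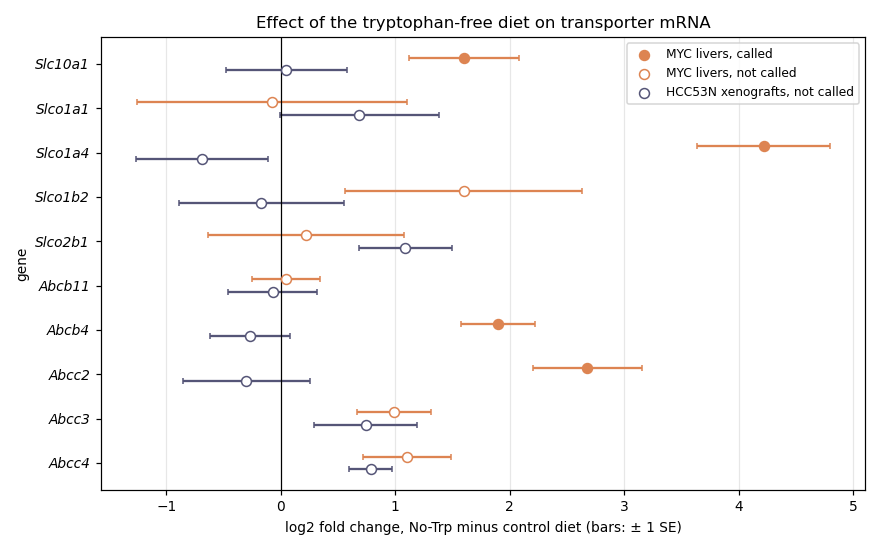
Log2 fold change of each transporter on the No-Trp diet against the control diet in MYC livers and HCC53N xenografts (3 mice per group, bars ± 1 SE, filled symbols called). Slco1a4, Abcc2, Abcb4 and Slc10a1 are filled in the livers, at 4.22, 2.68, 1.89 and 1.60, and no symbol is filled in the xenografts.

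Because mouse 102 held the highest level of most transporters among the control livers, the fit was repeated without it, an alternative listed with all other single libraries. Then 8 of the 10 transporters were called higher, all but Abcb11 and Abcc4. Calls rose over all genes as well, to 3207 of 14412 in either direction, against 2337 of 14122 with all libraries. Slco1b2 had a log2 fold change of 3.95 (edgeR adjusted p = 0.00187), Slco1a1 one of 2.82 (adjusted p = 0.0132), Slco2b1 one of 1.93 (adjusted p = 0.0193) and Abcc3 one of 1.32 (adjusted p = 0.0182). Slco1a4 reached 5.11, Abcc2 3.01, Slc10a1 2.27 and Abcb4 2.27. Abcb11 remained near 0, at -0.02. Since mouse 102 was singled out by its levels of these same genes, the added calls and adjusted p are descriptions and no separate evidence. The calls rested on the other control mice as well. Without mouse 103 no transporter was called, and 8 genes were called in all, whereas without mouse 101 Slco1a4 alone was called. Without mouse 105 the calls were those of Slco1a4 and Abcb4. In these 3 fits the log2 fold changes of Slco1a4, Abcc2, Abcb4 and Slc10a1 stayed above 1.

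**Figure D3:**
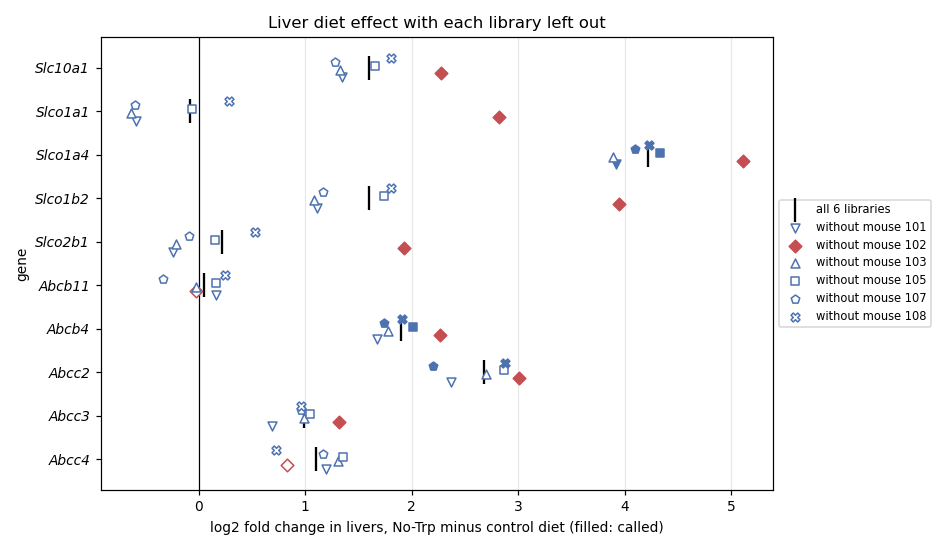
Log2 fold change of each transporter in the livers (No-Trp minus control diet) with all 6 libraries (vertical tick) and with each mouse left out (symbols, filled where called). Leaving out control mouse 102 (red diamonds) moves Slco1a1 from -0.08 to 2.82, Slco1b2 from 1.60 to 3.95 and Slco2b1 from 0.22 to 1.93, and leaves Abcb11 near 0.

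The levels were next set against the hepatocyte markers of the same liver, as CPM per 1000 CPM of the summed markers. Slco1a4 was at 1.54 ± 0.18 (SD, n = 3) in the control livers, including mouse 102, and at 9.08 ± 3.51 in the No-Trp livers, and the ranges of 1.34 to 1.65 and 5.67 to 12.7 did not overlap. Abcb4 was at 7.42 ± 2.98 and 7.16 ± 2.60 on this scale, Slc10a1 at 9.29 ± 1.43 and 7.69 ± 1.33, and Abcc2 at 5.70 ± 3.51 and 8.25 ± 0.77, all with overlapping groups. The groups also overlapped for Slco1a1, Slco1b2, Slco2b1, Abcc3 and Abcc4. Abcb11 was at 21.0 ± 11.7 in control and 4.46 ± 0.53 in No-Trp livers, with ranges of 7.54 to 28 and 3.85 to 4.82. Thus relative to the summed hepatocyte markers Slco1a4 was higher and Abcb11 lower in every No-Trp liver, while the other called transporters did not separate. These ratios were not tested, since the markers also differed between the diets. The sum rests largely on Alb, at 88176 of 113469 CPM in No-Trp mouse 107 and 4522 of 9686 CPM in control mouse 103. Log2 fold changes of the 7 markers ranged from 0.23 for Serpina1a to 2.14 for Alb, with Hnf4a at 0.83. Scaling to single markers was not done and could separate the groups otherwise.

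The make-up of the transporters differed between the diets. Abcb11 accounted for 82.4%, 60.7% and 70.4% of the summed CPM per kb of the 3 canalicular pumps in control mice 101, 102 and 103, and for 35.6%, 34.6% and 30.6% in No-Trp mice 105, 107 and 108. The share of Abcc2 was 13% ± 5.52 (SD, n = 3) and 37.7% ± 4.07, and that of Abcb4 was 15.8% ± 5.62 and 28.7% ± 5.66. Among the 5 uptake carriers Slco1a4 made up 3.74% ± 0.66 in control and 20.6% ± 5.35 in No-Trp livers. The log2 ratio of Slco1a4, whose product is more abundant in female mouse liver, to Slco1a1 was -0.43, -2.83 and -0.19 in the control livers and 1.76, 1.51 and 3.20 in the No-Trp livers. For these 5 ratios the groups of livers did not overlap, and the two-sided exact permutation p was 0.1 for each, the smallest that 3 against 3 mice allow (adjusted 0.2 over 12 ratios compared in livers and xenografts). The shares of the 3 pumps are parts of 1 sum, so they are not separate results. Of the uptake carriers only the share of Slco1a4 was tested. The share of Slco2b1 also did not overlap, at 2.74% ± 0.88 in control and 1.18% ± 0.32 in No-Trp livers. With any single liver left out, the difference in the share of Abcb11 stayed between -42.8 and -32.0 percentage points. Abcc3 and Abcc4 together were 12.9% ± 2.43 and 13.1% ± 4.64 of the 5 exporters, with an exact permutation p of 1.

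**Figure D4:**
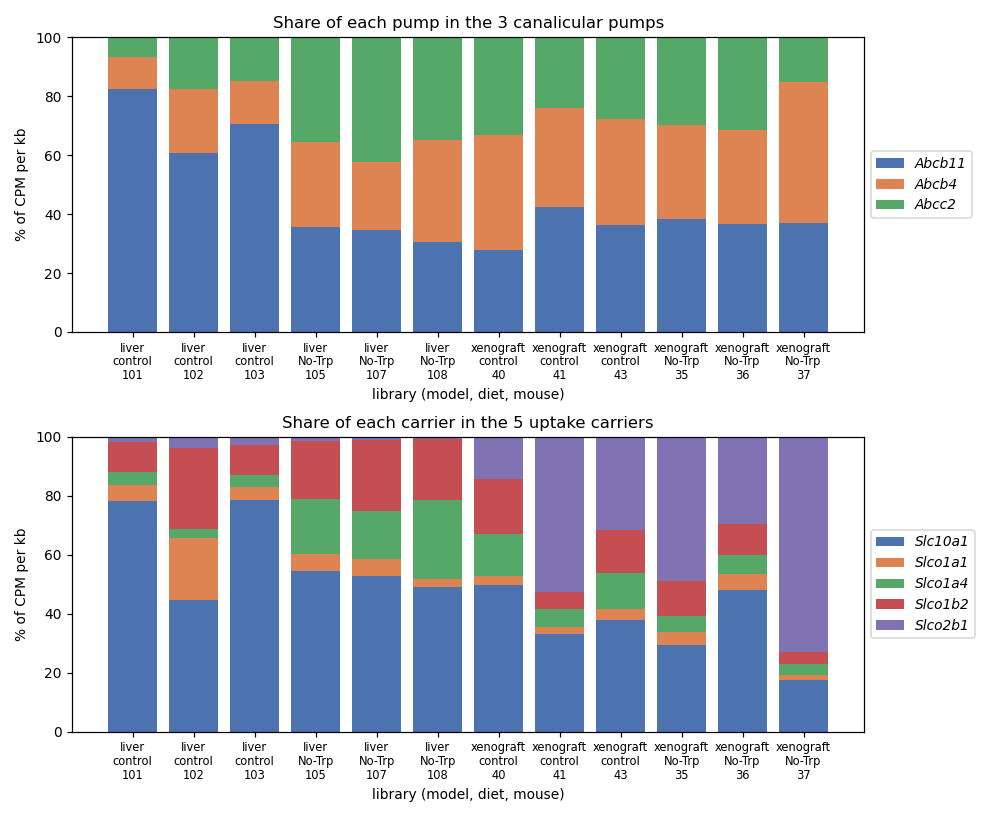
Stacked shares of CPM per kb in each library, for the 3 canalicular pumps (upper panel) and the 5 uptake carriers (lower panel), with libraries ordered by model and diet. The share of Abcb11 falls from 60.7% to 82.4% in control livers to 30.6% to 35.6% in No-Trp livers, and Slco2b1 takes a larger share in xenografts than in livers.

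To place the 10 transporters among their families, the other 29 genes of the SLC10, SLCO, ABCB and ABCC families on a list were examined, of which 20 were tested in the livers. On the No-Trp diet 4 were called higher and 3 lower, against 6 and 4 of 21 without mouse 102, 2 and 2 without 107, 1 lower without 101 and none without 103 or 105. Over all genes, 9.28% were called higher and 7.27% lower. Named by size of change among those called higher were Slc10a6, an uptake carrier for steroid sulfates, at 0.22 and 2.17 CPM (log2 fold change 3.16 ± 0.76, edgeR adjusted p = 0.0294), and Slco2a1, the prostaglandin carrier, at 19.8 and 111 CPM (2.51 ± 0.39, adjusted p = 0.0163). The other 2 were Abcb9 (1.27) and Abcc9 (1.63). The genes called lower, like these 2 named after their values were seen, were Abcb1a, Abcb1b and Abcc1, which encode the multidrug exporters known as P-glycoprotein and MRP1. Abcb1b was at 31.7, 44.1 and 46.9 CPM in the control livers and at 10.7, 2.28 and 10.3 CPM in the No-Trp livers (log2 fold change -2.39, adjusted p = 0.0263). Abcb1a had means of 61.0 and 25.6 CPM (-1.24, adjusted p = 0.0202) and Abcc1 of 22.8 and 9.23 CPM (-1.29, adjusted p = 0.0274). In the livers Abcb4 and Abcc2 thus rose while these close relatives fell. Reads in stretches shared by Abcb4, Abcb1a and Abcb1b could be assigned to either copy or left out.

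**Figure D5:**
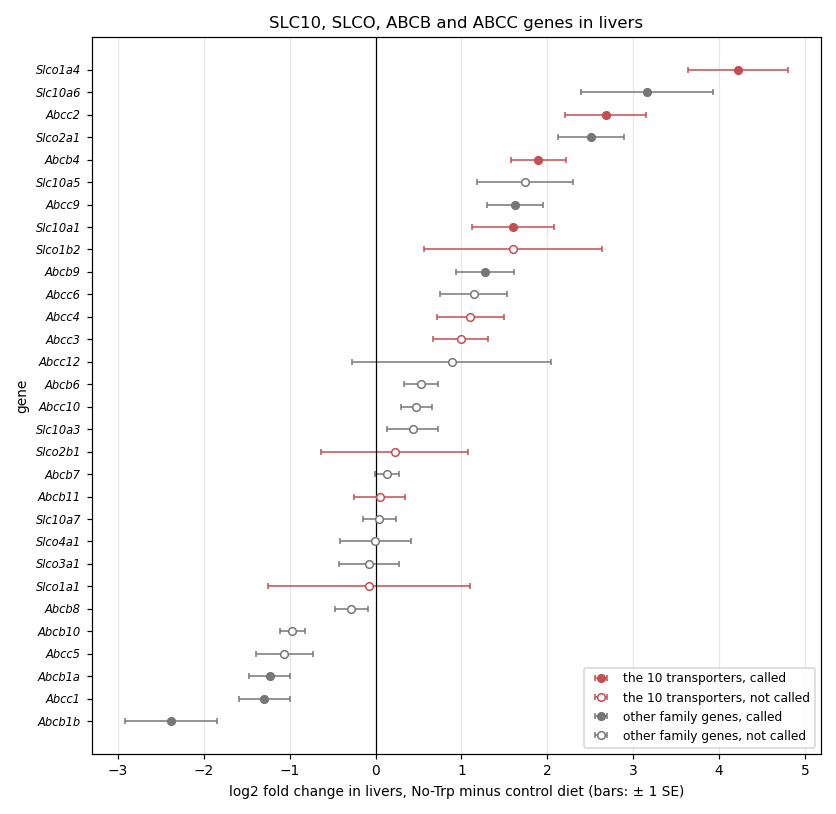
Log2 fold change (± 1 SE) on the No-Trp diet in MYC livers for the 10 transporters (red) and the 20 other tested genes of their families (grey), ordered by size, filled where called. Slco1a4 is at the top at 4.22, and Abcb1b, Abcc1 and Abcb1a are the called genes below 0.

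Genes that act before, beside and above the transporters were taken from hand-written lists. Of 23 called list genes followed through the alternative fits, 22 lost the call without mouse 103. The exception was Cyp2b9, which kept its call in all 14 alternatives. Beside the list counts here and below, 9.28% of all genes were called higher and 7.27% lower with all libraries. In either direction, 3207 genes were called without mouse 102, 2143 without 108, 1269 without 107, 368 without 105, 294 without 101 and 8 without 103. Of 15 bile acid synthesis genes, 4 were called higher in No-Trp livers and none lower, with a median log2 fold change of 1.48. Without mouse 102, 14 of the 15 were called higher, with a median of 2.52, but only 1 without mouse 101 or without 105 and none without 103. Acox2, a peroxisomal oxidase of the side chain, rose from 95.1 to 633 CPM (2.75 ± 0.36, edgeR adjusted p = 0.0136), and Cyp27a1, which starts the acidic pathway, from 77.2 to 291 CPM (1.93 ± 0.41, adjusted p = 0.0236). Cyp7a1, the rate-limiting enzyme of the classic pathway, was at 5.11, 114 and 8.91 CPM in the control livers and at 378, 330 and 356 CPM in the No-Trp livers. It was not called (3.08, adjusted p = 0.0848), and mouse 102 was again the highest control. Without it, the log2 fold change of Cyp7a1 was 5.65 (edgeR adjusted p = 0.000657).

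Of 16 regulators 8 were called higher and none lower, with a median of 1.05, against 10 higher without mouse 102, 2 without 101, 3 without 105, 5 without 107 and none without 103. Nr1i3, which encodes CAR, rose from 36.3 to 316 CPM (3.15 ± 0.58, edgeR adjusted p = 0.0196) and Ppara from 90.1 to 424 CPM (2.25 ± 0.41, adjusted p = 0.0196). Nr1h4, which encodes the bile acid receptor FXR, an activator of Abcb11 and Abcb4, was named after its values were seen. It was at 52.2, 91.7 and 45.0 CPM in the control livers and at 214, 263 and 278 CPM in the No-Trp livers (2.02 ± 0.29, adjusted p = 0.0146). Nr1h4 and Abcb4 were thus both called higher and Abcb11 was not, and a link between these genes was not tested. Nr1i2, which encodes PXR, also rose (1.43, adjusted p = 0.0127), and Hnf4a had a log2 fold change of 0.83, below the limit.

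Of the 16 target genes of xenobiotic receptors and NRF2, 9 were called higher and none lower, with a median of 1.64. Without mouse 102, 10 were called with a median of 2.83, whereas 3 were called without 101, 4 without 105 and none without 103. Nqo1, a quinone reductase, rose from 1.89 to 21.2 CPM (3.51 ± 0.38, edgeR adjusted p = 0.0110) and Cyp2b10, a classic target of CAR, from 0.21 to 2.18 CPM (3.38 ± 0.70, adjusted p = 0.0232). Cyp3a11 and Por, named after their values were seen, had means of 2005 and 1843 CPM in the No-Trp livers and of 244 and 201 CPM in the control livers. Of 15 tested genes of other hepatocyte transporters 6 were called higher and none lower, with 10 called higher without mouse 102, 3 without 107 and none without 101, 103 or 105. The sterol exporters Abcg5 and Abcg8 rose from 25.1 to 190 CPM (2.95 ± 0.58, adjusted p = 0.0222) and from 26.7 to 167 CPM (2.66 ± 0.60, adjusted p = 0.0266). Slc51b, a subunit of the basolateral bile acid exporter, had values in the opposite direction, 19.3 and 5.42 CPM, and was not called (adjusted p = 0.0989). Of 20 genes for the scaffold and traffic of the canalicular membrane 4 were called higher and none lower, with a median of 0.15, with 7 called higher without mouse 102, 1 without 107, 2 without 108 and none without 101, 103 or 105. The tight junction gene Cldn3 (2.49 ± 0.74, adjusted p = 0.0493) and Myo5b, a motor of apical recycling vesicles (1.51 ± 0.30, adjusted p = 0.0216), changed most.

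Slco1a1 and Slco1a4 differ between the sexes in mouse liver, so genes of known sex bias were counted as well. Of 13 tested female-biased genes 9 were called higher in the No-Trp livers of these males and none lower, with a median log2 fold change of 3.69. Cyp3a44 rose from 1.12 to 223 CPM (7.64 ± 1.19, edgeR adjusted p = 0.0171) and Cyp3a41a from 0.60 to 103 CPM (7.49 ± 1.07, adjusted p = 0.0160). Both belong to a cluster of near-identical Cyp3a genes, and their counts are uncertain for that reason. Of 13 tested male-biased genes 1 was called higher, Gstp1 (1.15 ± 0.30, adjusted p = 0.0343), and none lower, with a median of -1.01. Without mouse 102 the median of the male-biased genes turned to 1.93, with 7 called higher and 1 lower, and none was called without 101, 103, 105 or 108. The female-biased genes had 10 called higher and a median of 3.92 without mouse 102, 5 called without 101 and 2 without 103.

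Likeness of pattern among the transporters was graded, and no sets were derived. Over the 6 livers, the Pearson correlation of log2 CPM, given as a description of libraries that share the diet groups, was 0.99 between Abcb4 and Slco1a4, 0.98 between Abcb4 and Abcc2, and 0.98 between Slco1a1 and Slco2b1, the pair in which mouse 102 was highest. That of Abcb11 with the 9 other transporters lay between -0.19 and 0.15. Other values joined the named pairs, with Slc10a1 at 0.97 to Slco1b2, 0.95 to Abcb4 and 0.80 to Slco1a1. The correlation of Slco1a1 with Slco1a4 was 0.58. For each transporter the best 3 of 14122 genes were picked over the 6 livers. High values follow in part from this choice, and shared control was not tested. The genes most like each transporter had correlations of 0.981 to 0.9999. They were Aldh1l1, BC048644 and Upp2 for Slc10a1, Slc13a3, Cyp2c67 and Hsd3b2 for Slco1a1, and Etnk2, Sult1d1 and Aim1 for Slco1a4. They were Cyp2d10, Tmem220 and Ugt2a3 for Slco1b2, and Hectd2, Egfr and Abca7 for Slco2b1. Among the exporters they were Icam2, Rbm15 and Camta1 for Abcb11, Psmf1, Eci2 and Pex11a for Abcb4, Etfdh, Sec24c and Slc25a13 for Abcc2, Arhgef5, Cyb5b and Acss3 for Abcc3, and Zfp53, Tmbim1 and Mpv17l2 for Abcc4.

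Since several transporters moved together and others did not, their promoters were compared. RefSeq promoters (GRCm38.p6, 300 bases from 250 before to 50 after the start site) were found for 9 of the 10 genes. Both strands were searched for AGGTCA, a half-site of nuclear receptors, GTTAAT, a half-site of HNF1, and CACGTG, the E-box to which MYC and its partners can bind. The 3 motifs do not overlap in these windows. AGGTCA was found in 4 of the 9 promoters, 2 times in Slco1a1 and 1 time each in Slco1b2, Abcb11 and Abcc2, against 16.3% of the 32851 promoters. GTTAAT was found only in Slco1b2 among the 9, against 7.10% of all promoters, and CACGTG only in Abcc4, against 7.15%. A match is a run of letters and no proof of binding. The 250 bases before the start site are printed 5′ to 3′ on the strand of the gene for Abcb11 and Abcb4, which moved unequally, for the carrier with the largest rise and for Abcc4, with matches in capitals. Abcb11 and Abcc2 each have AGGTCA in one orientation or the other near the start. Slco1a4 and Abcb4 have none of the 3 motifs in the window. The part of these motifs in the levels on either diet was not tested. The stretches lie at chr2:69342617-69342866 (minus strand) for Abcb11, chr5:8893471-8893720 (plus strand) for Abcb4, chr6:141856221-141856470 (minus strand) for Slco1a4 and chr14:118706220-118706469 (minus strand) for Abcc4. For Abcc2, where an annotated transcript starts inside the window, only the match with 12 bases on each side is shown, at chr19:43782247-43782276 (plus strand).
Abcb11: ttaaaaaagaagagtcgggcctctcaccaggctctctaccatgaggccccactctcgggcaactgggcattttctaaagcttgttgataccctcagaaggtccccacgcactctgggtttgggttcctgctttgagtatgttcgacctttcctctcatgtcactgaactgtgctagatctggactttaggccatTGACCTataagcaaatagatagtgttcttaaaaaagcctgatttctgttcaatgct
Abcb4: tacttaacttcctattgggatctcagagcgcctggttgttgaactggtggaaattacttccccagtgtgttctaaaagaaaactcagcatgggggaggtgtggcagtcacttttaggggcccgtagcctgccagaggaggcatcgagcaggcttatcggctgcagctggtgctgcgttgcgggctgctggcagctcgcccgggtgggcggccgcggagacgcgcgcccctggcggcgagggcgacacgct
Slco1a4: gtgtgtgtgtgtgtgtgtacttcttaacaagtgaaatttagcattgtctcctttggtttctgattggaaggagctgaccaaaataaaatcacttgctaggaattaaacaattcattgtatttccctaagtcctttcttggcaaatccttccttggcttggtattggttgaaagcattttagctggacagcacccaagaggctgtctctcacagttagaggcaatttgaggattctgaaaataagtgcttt
Abcc4: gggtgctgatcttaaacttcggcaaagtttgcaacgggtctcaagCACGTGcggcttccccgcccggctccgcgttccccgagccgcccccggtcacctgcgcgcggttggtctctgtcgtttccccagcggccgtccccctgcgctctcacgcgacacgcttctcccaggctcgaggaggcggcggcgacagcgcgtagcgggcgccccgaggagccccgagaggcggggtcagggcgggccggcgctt
Abcc2: tgtcaggatgaaAGGTCAggagacttgcct

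AGGTCA starts 56 bases before the RefSeq start site in Abcb11, where it is read on the opposite strand, and 49 bases before it in Abcc2. In the GENCODE M21 annotation Abcc2 already starts at 43782192 on chromosome 19, so by that annotation the match lies inside the gene. The promoters also differed in base composition. The windows of Abcc4 and Abcb4 were 72.7% and 64.0% G and C with 41 and 21 CpG dinucleotides, whereas those of the other 7 genes were 35.3% to 57.0% with 0 to 5 CpG, and the median of all promoters was 52.7% with 7 CpG. In the GENCODE M21 annotation of GRCm38, Slco1b2 (chromosome 6, 141629518 to 141686646), Slco1a4 (141805440 to 141856199) and Slco1a1 (141907282 to 141946962) lie in 1 gene cluster, the first on the plus strand and the others on the minus strand. With all 6 livers Slco1a4 alone of the 3 was called, and without mouse 102 all 3 were called higher, at 5.11 for Slco1a4, 3.95 for Slco1b2 and 2.82 for Slco1a1.

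In the xenografts most of these transporters were at low levels. Slc10a1 was at 4.32, 1.76 and 3.47 CPM in control tumors 40, 41 and 43 and at 3.95, 4.67 and 1.32 CPM in No-Trp tumors 35, 36 and 37. Abcb11 was at 3.09, 2.59 and 2.99 CPM and at 3.56, 3.07 and 1.70 CPM, resting on 40 to 98 reads per library. Over the 6 tumors Slco1a4 was at 0.848 to 3.58 CPM, Slco1b2 at 0.678 to 3.63 CPM, Abcb4 at 3.71 to 7.94 CPM and Abcc2 at 1.15 to 6.13 CPM. Slco1a1 was the lowest, at 0.25 to 1.45 CPM on 6 to 40 reads. Per kb, Abcc4 (6.90 ± 1.44 in control and 12 ± 1.38 in No-Trp tumors, SD, n = 3) and Abcc3 (5.26 ± 2.7 and 8.88 ± 4.01) came first in both groups, and the 8 others had means of 0.12 to 2.27 CPM per kb. For all uptake carriers and canalicular pumps but Slco2b1, tumor 41 was the lowest of the control tumors and tumor 37 the lowest of the No-Trp tumors. These 2 libraries also had the lowest hepatocyte marker sums, 316 and 317 CPM, and the part of the markers in these values was not tested.

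On the No-Trp diet none of the 10 transporters was called in the xenografts by edgeR, and 2 had an unadjusted p under 0.05, as did 2483 of the 14704 genes tested. Of these genes 0.36% were called, and DESeq2 also called none of the 10. Abcc4 was at 46.7, 51.8 and 33.9 CPM in control tumors and at 71.8, 86.8 and 71.3 CPM in No-Trp tumors. It was the only transporter whose groups did not overlap, against 10.8% of all genes with the No-Trp tumors higher, and its log2 fold change was 0.78 ± 0.18 (edgeR adjusted p = 0.106). Slco2b1 was at 3.38, 7.58 and 7.92 CPM and at 17.9, 7.84 and 14.8 CPM, with overlapping groups and a log2 fold change of 1.09 ± 0.41 (adjusted p = 0.241). Abcc3 was at 47.6, 23.0 and 19.3 CPM and at 70.9, 55 and 25.8 CPM (0.74 ± 0.45, adjusted p = 0.454). The log2 fold changes of the 7 others lay between -0.69 for Slco1a4 and 0.69 for Slco1a1. Adipocyte markers differed between these groups, summing to 11.4 to 66.6 CPM in control and 351 to 736 CPM in No-Trp tumors with 2 of 4 markers called higher, and their part in the values was not tested. None of the genes on the 8 pathway lists was called in the xenografts by edgeR, and DESeq2 called 4.

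The difference between the models was tested directly with the interaction of diet and model over all 12 libraries, where negative values mean a smaller rise, or a fall, in the xenografts. Of the 10 transporters 3 were called lower, against 6.01% of the 15472 genes tested. Slco1a4 differed by -4.85 ± 0.83 on the log2 scale (edgeR adjusted p = 0.00819), Abcc2 by -2.93 ± 0.77 (adjusted p = 0.0280) and Abcb4 by -2.13 ± 0.44 (adjusted p = 0.0128). Slco1a4 and Abcb4 kept this call in all 19 alternatives, and Abcc2 lost it in 5, all of which left out a library. For Slc10a1 the difference was -1.50 ± 0.75 (adjusted p = 0.195) and for Slco1b2 -1.70 ± 1.41 (adjusted p = 0.438). Both were called without mouse 102, at -2.18 (adjusted p = 0.0357) and -4.06 (adjusted p = 0.0111). Abcb11, Abcc3 and Abcc4 differed by -0.08 ± 0.41, -0.22 ± 0.61 and -0.29 ± 0.45, with adjusted p between 0.693 and 0.923.

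Set against livers on the same diet, the xenografts were lower in 8 of the 10 transporters on the control diet, against 20.2% of all genes, and in 7 on the No-Trp diet, against 19.1%. With all livers, the fall was largest for Slco1a1 on the control diet, at -7.71 ± 1.40 on the log2 scale, followed by Abcb11 at -6.68 ± 0.36, Slco1b2 at -6.07 ± 1.17 and Slc10a1 at -5.76 ± 0.63. On the No-Trp diet it was largest for Slco1a4, at -8.42 ± 0.74, and that of Abcb11 was -6.75 ± 0.36. The edgeR adjusted p of these values were 0.000956 or lower. Without mouse 102 the order on the control diet changed, with Abcb11 at -6.77, Slc10a1 at -5.11, Slco1a1 at -4.83 and Slco1b2 at -3.74, all still called lower. Slco2b1 was called lower on the control diet (-2.15 ± 0.78, adjusted p = 0.0322) but not without mouse 102 (-0.45, adjusted p = 0.442), and it lost the call in 6 of 19 alternatives in all. On the No-Trp diet it was not called (-1.25, adjusted p = 0.172), but it was without mouse 102 (-1.28, adjusted p = 0.0218). Abcc3 and Abcc4 were called on neither diet, with -0.45 and -0.67 for Abcc3 and 0.52 and 0.23 for Abcc4. The canalicular pumps that remained in the xenografts were divided differently from those of control livers, with Abcb11 at 35.5% ± 7.44 and 37.3% ± 0.98 of the 3 pumps on the 2 diets. Abcc3 and Abcc4 together made up 87.8% ± 3.33 and 93.7% ± 0.87 of the 5 exporters, and these shares did not overlap between the diets (two-sided exact permutation p = 0.1).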

How the data were processed

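PolyA RNA-seq libraries of 12 mice, 3 per group, were analysed. Per the labels and methods, the authors trimmed reads with Trim Galore, aligned them to mm10 with STAR 2.7.2b, used SAMtools 1.9 and deposited HTSeq counts, which are raw whole numbers for 24062 gene symbols. The submitters' processing notes also name DESeq2, Bowtie2 2.3.4.3 and BWA 0.7.17. Strand setting and overlap rule are not given in the sources used here. Summary lines of reads assigned to no gene, 24.7% to 39.4% of a library, were left out. Groups came from the labels, and 4 libraries (101, 108, 41 and 43) were marked as resubmitted. Precision rests on 14660963 to 26085349 reads per library and 3 mice per group.

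Counts were tested with edgeR 4.0.16 (R 4.3.3, limma 3.58.1): TMM factors, filterByExpr, robust dispersions and a two-sided quasi-likelihood test with Benjamini-Hochberg adjustment over all genes tested. Diets were compared within each model, and the interaction and the contrasts between models came from 1 fit of 12 libraries. SE is the log2 fold change divided by the root of F. Levels per kb used GENCODE M21 exon lengths. In each list and comparison the 2 called genes with the largest change were named. Correlations used log2 CPM with a prior count of 2. Ratios were compared by exact permutation tests. The scripts were tested on simulated data. Alternatives were library totals, DESeq2 1.42.0 and its size factors, other filters on low counts, 1 fit over all libraries, resubmission as a covariate, removal of Rn45s (12.1% of counts in mouse 101) and leaving out each library. Replicates of a group differed by more than sampling noise, so none was merged. The members and gene lists were chosen with earlier results of these data known.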

Additional observations from a re-analysis of the deposited data

Results flagged for a closer look

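The response to the No-Trp diet differed between livers and xenografts for 3 transporters, by the interaction of diet and model. The difference, xenograft minus liver on the log2 scale, was -4.85 for Slco1a4, -2.93 for Abcc2 and -2.13 for Abcb4 (edgeR adjusted p = 0.00819, 0.0280 and 0.0128). All 3 livers on the No-Trp diet were above the control livers for each gene, and the xenograft groups overlapped. In the xenografts these genes were at 0.848 to 7.94 CPM, on 20 to 162 reads per library. Model, host strain, sex and site cannot be told apart in this difference.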

How the results depend on the processing

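With 1 library left out at a time, the number of transporters called in the livers ranged from 0 (without mouse 103) to 8 (without 102), against 4 with all 6 livers, and was 1 without 101 and 2 without 105. The genes called on the pathway lists ranged from 2 to 77 against 48. Of 23 called list genes followed, 22 lost the call without mouse 103, all but Cyp2b9. The number of transporters called in the interaction ranged from 2 to 5 against 3. Of all genes, 2337 were called in the livers (3570 by adjusted p alone, 8 to 3207 without 1 library) and 53 in the xenografts (380 by DESeq2, 82 with RLE factors, 118 with no filter, 15 with at least 10 counts in every library, 4 with resubmission as a covariate, 85 without Rn45s, 23 in 1 fit over all libraries, 9 to 78 without 1 library). DESeq2 called 4 pathway list genes in the xenografts, where edgeR called 0. The cause of these differences was not tested.

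The sign turned only for values that were not called with all libraries. With library totals, which moved the median of all genes to -0.30 in the livers and 0.11 in the xenografts, the log2 fold changes were -0.10 for Slco2b1 and -0.29 for Abcb11 in livers, 0.050 for Abcb11 in xenografts, and 0.35, 0.20 and 0.087 for the interactions of Abcb11, Abcc3 and Abcc4. With resubmission as a covariate they were 0.31 for Slco1a1 in livers, -0.39 for Slc10a1 in xenografts, and -0.66 and -0.0070 for the interactions of Slco1a1 and Slco2b1. Without 1 library, the liver values ranged from -0.63 to 2.82 for Slco1a1, -0.24 to 1.93 for Slco2b1 and -0.34 to 0.24 for Abcb11. The xenograft values ranged from -0.28 to 0.44 for Slc10a1, -0.70 to 0.26 for Slco1b2, -0.27 to 0.19 for Abcb11, -0.50 to 0.048 for Abcb4 and -0.58 to 0.11 for Abcc2. Interactions ranged from -2.05 to 1.39 for Slco1a1, -0.82 to 1.37 for Slco2b1, -0.29 to 0.30 for Abcb11, -0.55 to 0.29 for Abcc3 and -0.54 to 0.092 for Abcc4, and the contrast of xenografts with livers on the No-Trp diet from -0.017 to 0.61 for Abcc4. Differences in share ranged, in percentage points, from -2.06 to 5.34 for Abcb11, -4.19 to 3.80 for Abcb4 and -5.86 to 2.25 for Abcc2 among the pumps in xenografts, and from -2.28 to 2.33 for Abcc3 with Abcc4 in livers.

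DESeq2 gave no adjusted p for Slco1b2 in livers, and Slco1a1 had no value under the filter of 10 counts in any comparison with xenografts. No paired analysis was possible because the groups share no replicate numbers. Depth limits the xenograft values of Slco1a1 most, on 6 to 40 reads. It also limits those of Slco1b2 (16 to 98 reads), Slco1a4 (20 to 73), Abcc2 (27 to 131), Slc10a1 (31 to 140) and Abcb11 (40 to 98).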
